A study of Mus musculus with 12 samples.

Results

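CD11c+ interstitial macrophages (CD11c+ IMs) were compared with alveolar macrophages (AMs) sorted from tumor-bearing lungs, in mice of both genotypes. The 8 libraries whose labels name these populations were taken, 4 of CD11c+ IMs and 4 of AMs, of 12 libraries in the series, and the 4 libraries of CD11c- IMs served only for checks and for 1 alternative fit. Each population had 2 libraries labelled *Il9r*-/- (KO in the sample titles) and 2 libraries labelled WT, numbered 1 and 2. *Il9r*-/- mice carry the deletion of the IL-9 receptor gene in every cell from the germline, so a difference between genotypes need not arise in the macrophages. The mice were C57BL/6 of both sexes, aged 8 to 16 weeks, all had received B16 cells, a mouse melanoma line, by intravenous injection, and neither the number of mice behind a library nor whether both populations of a number came from the same lungs was stated. After perfusion of the lungs, MerTK+ CD64+ macrophages were divided into SiglecF+ CD11c+ AMs and SiglecF- CD11c+ IMs, so the genes of these 4 sorting proteins are no finding here.

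AMs live in the airspaces, where they clear surfactant lipids and inhaled particles, and they are kept in place by GM-CSF and the nuclear receptor PPARγ. IMs live in the tissue between airspace and vessels, are replenished to a larger part from blood monocytes, and are known for antigen presentation, for complement production and for chemokine and IL-10 secretion. In tumor-bearing lungs, monocyte-derived macrophages can also take up the features of tumor-associated macrophages (TAMs), such as arginase 1 and angiogenic factors. The question of the comparison was which genes separate CD11c+ IMs from AMs in a common tumor environment, and which of these differences were seen in each genotype separately.

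The 8 libraries held 26988617 to 42020021 counts of reads per library. Levels are given as CPM, the counts scaled to library size after TMM normalization, and 4 values of a population always stand in the order *Il9r*-/- 1, *Il9r*-/- 2, WT 1 and WT 2. The gene deleted in 1 genotype went against its label. *Il9r* had 148, 154, 6 and 13 counts in CD11c+ IMs, against 253, 213, 23 and 9 counts in AMs, so that the counts were higher in the libraries labelled *Il9r*-/- than in those labelled WT, and any direction drawn from the genotype below refers to the label alone. Reads of the undeleted part of the gene can still be counted in a deleted allele, and which part was deleted was not examined here. *Xist* had 918 counts in WT CD11c+ IM 1 and 991 counts in WT AM 1 and at most 1 count in the other 6 libraries, and 4 Y-linked genes had the reverse pattern. The WT libraries numbered 1 thus differed in sex from the rest, and within WT the number and the sex cannot be told apart. *Siglecf* stood at 61.4, 32.8, 26.7 and 22.3 CPM in CD11c+ IMs, against 645, 602, 581 and 625 CPM in AMs (log2 fold change -4.17, SE 0.27, adjusted p = 2.42e-05). *Itgax* (CD11c) stood at 412, 289.7, 398 and 316 CPM in CD11c+ IMs, against 459, 565, 733 and 749 CPM in AMs. Its raw counts were 8761 to 16110 in the CD11c+ IM libraries and 1302 to 2263 in the CD11c- IM libraries, the order that the sample titles give. *Mertk* was at 57.3 to 192 CPM in CD11c+ IMs and 332 to 407 CPM in AMs, *Fcgr1* (CD64) at 60.8 to 149 CPM in CD11c+ IMs and 62.2 to 71.9 CPM in AMs, and neither population lacked a sorting marker that its gate required.

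The populations also differed in markers of other cells, and this touches several of the results. The summed level of 14 dendritic cell genes was 1706, 3506, 837.5 and 2150 CPM in CD11c+ IMs, against 230 to 381 CPM in AMs. The sum of 10 neutrophil genes was 737, 2633, 411 and 1616 CPM in CD11c+ IMs, against 198 to 340 CPM in AMs, and that of 6 B cell genes was 93.9, 357, 158 and 478 CPM, against 25.7 to 50.5 CPM. The sort of live MerTK+ CD64+ cells is meant to leave out all of these cell types. The CD11c+ IM libraries numbered 2 were above those numbered 1 in all of these sums, in both genotypes. None of the marker genes tested was at 0 counts in all 4 AM libraries. In bulk libraries, a lower share of cells of a type and less RNA per cell cannot be told apart. The labels do not say that the libraries of a group came from separate mice, and part of the spread behind the p-values may therefore be technical.

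Of 13297 genes tested with edgeR's quasi-likelihood test and genotype as a covariate, 2658 (20%) were higher and 2150 (16.2%) lower in CD11c+ IMs than in AMs, 36.2% in all, at a Benjamini-Hochberg adjusted p under 0.05. A log2 fold change is CD11c+ IM over AM throughout, with its standard error (SE), and called means past this threshold. The 2 directions differed in size. The median size of the called change was 2.31 log2 units for the higher genes and 0.77 for the lower genes. Beyond 4 log2 units there were 551 higher and 18 lower genes, and beyond 1 log2 unit 2008 and 780. The CD11c+ IM and AM libraries did not overlap for 37.2% of all genes, with the CD11c+ IM libraries above for 19.3% and below for 17.9%. Of the called genes, 86.3% of the higher and 91.5% of the lower were free of overlap.

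The same difference was then tested within each genotype. Within the libraries labelled *Il9r*-/-, 1681 genes (12.6%) were higher and 955 (7.18%) lower in CD11c+ IMs, and within WT 1395 (10.5%) were higher and 1195 (8.99%) lower. In both, 1174 genes (8.83%) were higher and 747 (5.62%) lower. These counts come from 1 fit of 4 groups, in which the genotypes share no library but share the estimate of the spread. The count called in both, 1921 genes (14.4%), fell to 1205 when each genotype was fitted alone, to 692 and 833 without *Il9r*-/- AM 1 or 2, to 898 and 754 without WT AM 1 or 2, and to 1100 without WT CD11c+ IM 2. Without *Il9r*-/- AM 1 or 2 the count within *Il9r*-/- was 737 and 925 in place of 2636 (19.8%), and it was 3914 without *Il9r*-/- CD11c+ IM 1. In place of 2590 (19.5%), the count within WT was 839 and 1032 without WT AM 2 or 1, 1292 and 1582 without WT CD11c+ IM 2 or 1, and 3570 to 3598 without an *Il9r*-/- CD11c+ IM library. Direction depended less on the libraries. Of 2922 genes called from the WT libraries alone, 98.6% had the same sign in the libraries labelled *Il9r*-/-, and of 1425 genes called from the libraries labelled *Il9r*-/- alone, 99.4% had the same sign in WT, against 78.7% of all genes tested.

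**Figure D1:**
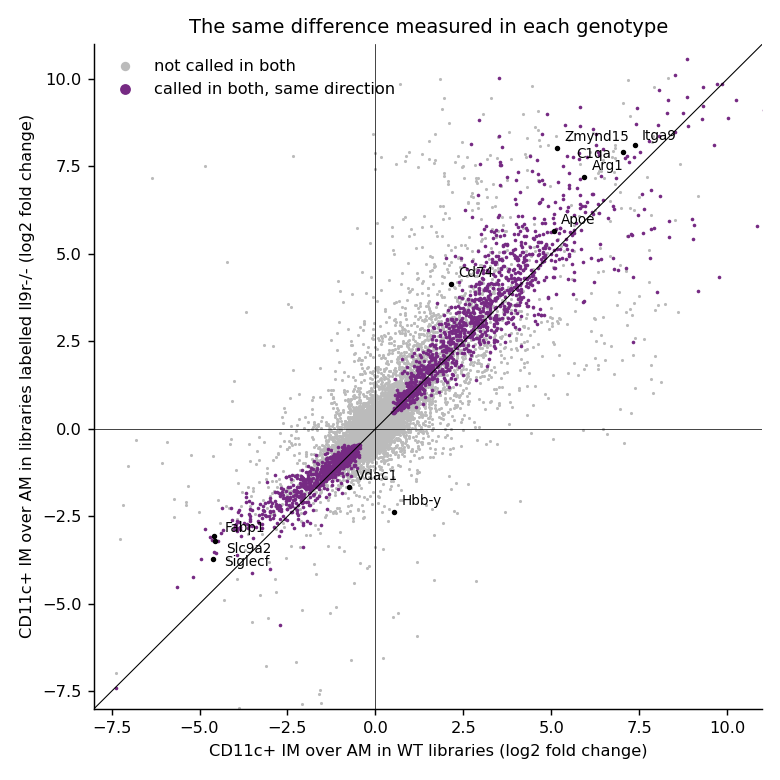
Log2 fold change of CD11c+ IMs over AMs in the libraries labelled *Il9r*-/- (vertical axis) against that in the WT libraries (horizontal axis) for the genes tested, with the 1921 genes called in both genotypes in purple and the line of equal change. The called genes lie along the line in both directions, with larger changes upward than downward, and 8 genes lie outside the axes.

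By gene list, the share of tested members called higher in CD11c+ IMs was 90.3% for interstitial and monocyte identity, 87.3% for the interferon response, 83.3% for MHC class II presentation, 73.1% for chemokine ligands, 69.4% for glycolysis and hypoxia and 61.9% for matrix remodelling. The share called lower was 82.1% for alveolar identity and 69.0% for lipid uptake, storage and oxidation. The lists were chosen with earlier results of these data known, so their counts describe the lists and are no independent test. The median log2 fold change over all genes tested was 0.02. Of all genes tested, 20% were called higher and 16.2% lower, and the counts of list members below are to be read beside these shares.

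**Figure D2:**
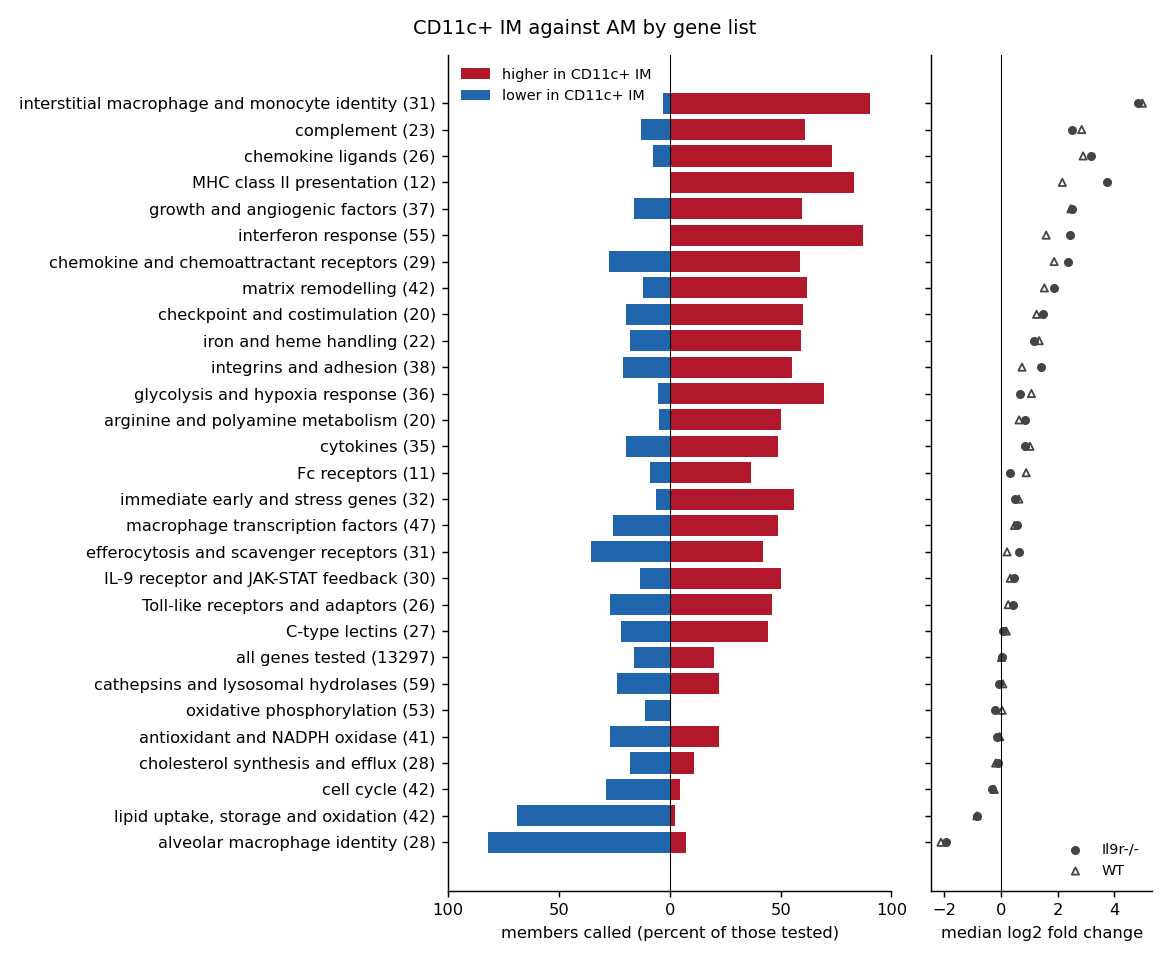
Left, percent of the tested members of each gene list called higher (red, to the right) or lower (blue, to the left) in CD11c+ IMs than in AMs, with the number tested in brackets. Right, the median log2 fold change of the list within *Il9r*-/- (filled circles) and within WT (open triangles). The interstitial and monocyte list has 28 of 31 members higher and the alveolar list 23 of 28 lower, and the medians of both genotypes lie on the same side of 0 for these lists.

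The genes of C1q were among those with the largest change toward CD11c+ IMs in both genotypes. The 3 chains of C1q, the molecule that recognises antibody complexes and dying cells, are encoded side by side on chromosome 4 (GRCm38, positions of the deposited table), *C1qb* at 136880145 to 136886177, *C1qc* at 136889802 to 136892914 and *C1qa* at 136895916 to 136898844, all on the minus strand. *C1qa* stood at 853, 549, 1202 and 668 CPM in CD11c+ IMs, against 2.16, 3.69, 8.35 and 5.85 CPM in AMs (log2 fold change 7.46, SE 0.38, adjusted p = 8.16e-06). *C1qb* stood at 2116, 1363, 2859.9 and 1590.0 CPM in CD11c+ IMs, against 6.82, 10.8, 14.8 and 15.3 CPM in AMs (log2 fold change 7.42, SE 0.32, adjusted p = 6.71e-06). *C1qc* stood at 1399, 878, 1858 and 1023 CPM in CD11c+ IMs, against 4.22, 6.52, 12.1 and 8.798 CPM in AMs (log2 fold change 7.41, SE 0.35, adjusted p = 6.71e-06). For all 3 chains the lowest CD11c+ IM library was far above the highest AM library. Within CD11c+ IMs of both genotypes the libraries numbered 1 led. A lack of overlap and a call in both genotypes were required of genes named for the largest change, so neither is a finding. For *C1qa* the log2 fold change was 7.91 within *Il9r*-/- and 7.04 within WT.

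The start regions of *C1qb* and *C1qc* are shown because these neighbouring genes were higher by nearly the same amount in CD11c+ IMs. The sequences are RefSeq's for GRCm38.p6, 250 bases before to 50 bases after the start, 5′ to 3′ on the strand of the gene, which is the minus strand for both. RefSeq places the start of *C1qb* slightly upstream of the end given in the deposited table, and positions are counted from RefSeq's start. The *C1qb* region is chr4:136886151-136886450 and the *C1qc* region chr4:136892865-136893164. Capitals mark a match to TGCTGA, the short site of MAF factors, at -131 from the start of *C1qb*, and to GAGGAAGT, a PU.1 motif, at -195 from the start of *C1qc*, where the match lies on the opposite strand.
C1qb: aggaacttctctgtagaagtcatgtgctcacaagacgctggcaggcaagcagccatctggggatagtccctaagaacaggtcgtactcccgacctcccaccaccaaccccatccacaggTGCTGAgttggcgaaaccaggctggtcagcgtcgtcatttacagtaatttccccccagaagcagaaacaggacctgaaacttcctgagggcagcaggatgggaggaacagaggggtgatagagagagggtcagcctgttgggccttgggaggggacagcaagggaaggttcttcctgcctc
C1qc: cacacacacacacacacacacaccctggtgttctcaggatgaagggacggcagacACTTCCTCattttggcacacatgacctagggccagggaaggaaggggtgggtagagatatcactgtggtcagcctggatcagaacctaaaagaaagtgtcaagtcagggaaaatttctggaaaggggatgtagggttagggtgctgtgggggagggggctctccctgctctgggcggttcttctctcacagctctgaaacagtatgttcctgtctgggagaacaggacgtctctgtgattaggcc
Of the 10641 promoters of this length found for tested genes (80%), 15.2% held TGCTGA and 3.37% held GAGGAAGT on either strand, and a match shows these letters and no binding. For the genes called higher a promoter was found for 76.4%, under the 80% needed, so no share over that set is given.

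Of 31 genes of interstitial macrophage and monocyte identity, 28 were higher and 1 lower in CD11c+ IMs, with a median log2 fold change of 5.05, and 27 of the 28 were higher in each genotype. *Apoe*, the apolipoprotein that carries cholesterol out of macrophages, was the most abundant of them and stood at 7482, 4888, 8822 and 6216 CPM in CD11c+ IMs, against 109, 139, 245 and 203 CPM in AMs (log2 fold change 5.35, SE 0.25, adjusted p = 6.71e-06). *Cx3cr1*, the fractalkine receptor of monocytes and tissue macrophages, stood at 132, 305, 181 and 321 CPM in CD11c+ IMs, against 3.09, 6.17, 10.4 and 8.22 CPM in AMs (log2 fold change 5.15, SE 0.40, adjusted p = 5.94e-05). *Ccr2*, the receptor by which monocytes leave the marrow, stood at 273, 373, 257 and 302 CPM in CD11c+ IMs, against 10.8, 16.4, 18.99 and 17.4 CPM in AMs (log2 fold change 4.26, SE 0.22, adjusted p = 8.16e-06). The 4 and 4 libraries did not overlap for any of these 3 genes. *Csf1r*, the receptor for M-CSF, was higher by 1.63 ± 0.19 log2 units (estimate ± SE) and *Ms4a7* by 3.82 ± 0.28. Genes known from perivascular and monocyte-derived tissue macrophages were also called in both genotypes, *Lyve1* (5.26), *Folr2* (5.57), *F13a1* (4.91), *Stab1* (6.05), *Aif1* (6.24) and *Cd163* (5.19). The 1 member that was lower was *Mrc1*, the mannose receptor, which AMs are known to carry at a high level. Its log2 fold change was -1.35 and its call ended in the fit of all 12 libraries (adjusted p = 0.0509 by edgeR).

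Beside C1q, the genes with the largest change in both genotypes included several of other functions. *Itga9*, an integrin subunit that binds tenascin and osteopontin, stood at 30.2, 23.9, 41.7 and 29.6 CPM in CD11c+ IMs, against 0.0736, 0.119, 0.36 and 0.0338 CPM in AMs (log2 fold change 7.67, SE 0.45, adjusted p = 1.50e-05). *Olfml3*, a secreted glycoprotein, was at 32.2 to 81.2 CPM in CD11c+ IMs and 0.437 to 0.812 CPM in AMs, and *Tmem119*, best known as a marker of microglia, at 19.7 to 29.9 CPM in CD11c+ IMs and 0.0245 to 0.334 CPM in AMs. *Apol7c*, an apolipoprotein L gene, was higher by 7.18 ± 0.90 log2 units, at 23.3 to 290.2 CPM in CD11c+ IMs and 0.0491 to 1.61 CPM in AMs. In the other direction, *Coro6*, a coronin that binds actin, was lower (log2 fold change -4.30 ± 0.45) and stood at 0.592 to 3.96 CPM in CD11c+ IMs and 25.7 to 36.1 CPM in AMs. *Cpne5* (-3.90), a calcium-dependent lipid-binding protein, *Kcnk5* (-3.59), a potassium channel, *Slc9a2* (-3.85), a sodium-proton exchanger, and *D630039A03Rik* (-3.78) were lower too. Genes were named here only where both genotypes called them and the populations did not overlap, so neither trait is a finding.

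**Figure D3:**
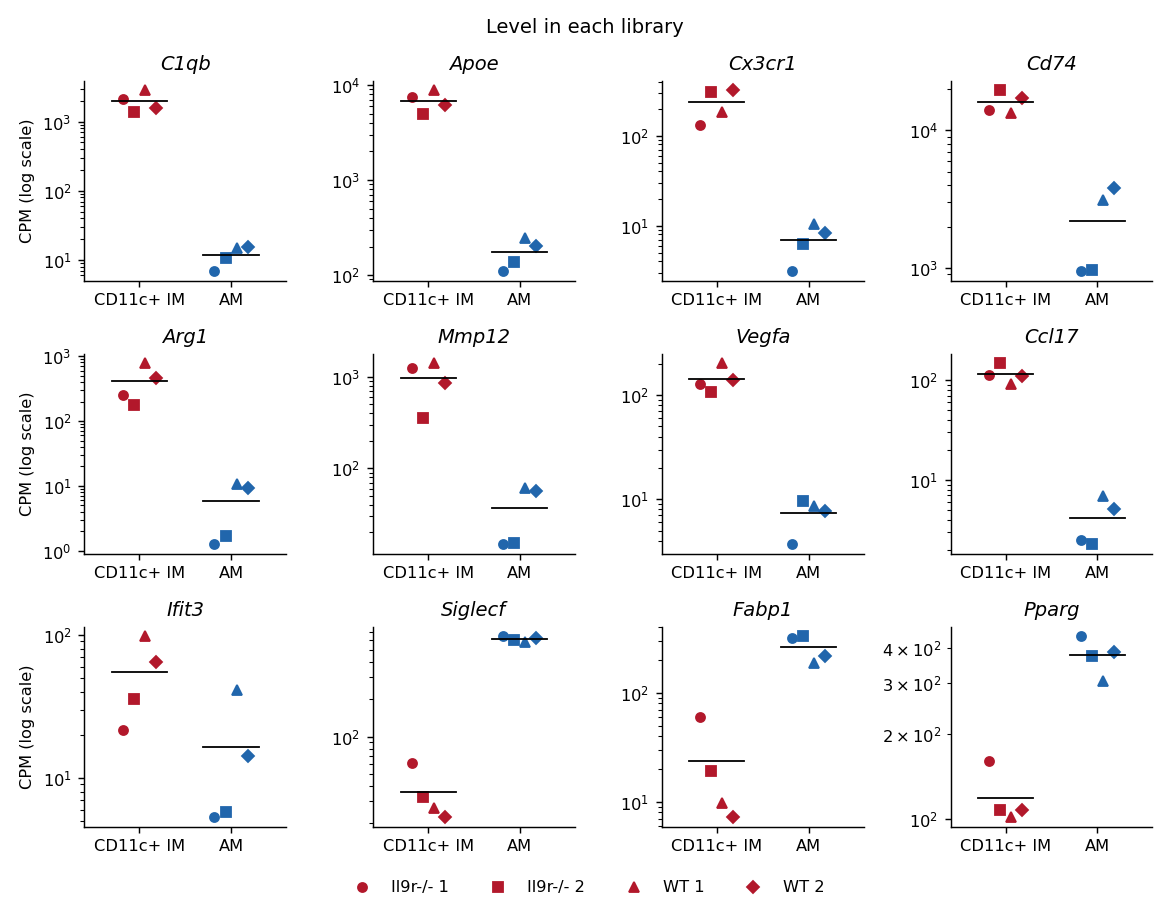
CPM (log axis) of 12 genes in the 4 CD11c+ IM libraries (red, left) and the 4 AM libraries (blue, right); symbols are the numbered libraries of each label and horizontal lines are means. For 11 of the 12 genes the populations do not overlap, and for *Ifit3* WT AM 1 reaches the range of the CD11c+ IM libraries.

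Of 28 genes of alveolar identity, 23 were lower in CD11c+ IMs, with a median log2 fold change of -2.03, and 17 of them in each genotype. *Chil3*, a chitinase-like protein that AMs secrete, was the most abundant and stood at 13605, 3125, 8609 and 10192 CPM in CD11c+ IMs, against 36209.7, 34988, 26940.0 and 29305 CPM in AMs (log2 fold change -1.84, SE 0.39, adjusted p = 0.007). *Ear1*, an eosinophil-associated ribonuclease of AMs, stood at 53.8, 16.1, 22.1 and 20.6 CPM in CD11c+ IMs, against 413, 408, 445 and 539 CPM in AMs (log2 fold change -4.04, SE 0.39, adjusted p = 0.000146), and *Ear2* was lower (log2 fold change -1.98 ± 0.13). *Ear1* and *Ear2* belong to a family of near-identical copies, and counting can split reads between such copies, so their separate levels are uncertain. *Fabp1*, a fatty acid binding protein, stood at 59.5, 19.2, 9.65 and 7.19 CPM in CD11c+ IMs, against 319.7, 332, 189 and 219 CPM in AMs (log2 fold change -3.81, SE 0.45, adjusted p = 0.000337). *Plet1* (-2.75), *Krt79* (-3.37), *Krt19* (-3.42) and *Epcam* (-2.71), genes of surface or keratin proteins that are shared with epithelium, were lower too. For 22 of the 23 genes every CD11c+ IM library was below every AM library, which also held for 91.5% of all genes called lower. The libraries differed in how far they lay below. The median ratio to the AM mean was -1.23 log2 units in CD11c+ IM 1 labelled *Il9r*-/-, which was the highest of the 4 CD11c+ IM libraries for 23 of 28 genes, -3.10 in the other library with that label, and -2.21 and -2.43 in WT. *Car4*, carbonic anhydrase 4, was the exception, at 721, 136, 129 and 149.6 CPM in CD11c+ IMs, against 1609, 1374, 847 and 697 CPM in AMs, where that library was above WT AM 2. The 2 members called higher were *Itgae* (CD103, 4.73), which dendritic cells also express, and *Spp1* (osteopontin). *Spp1* stood at 3407, 1243, 4468 and 3116 CPM in CD11c+ IMs, against 1492, 1550.1, 1303 and 1349 CPM in AMs (log2 fold change 1.06, SE 0.32, adjusted p = 0.032). CD11c+ IM 2 labelled *Il9r*-/- was below all AM libraries, and *Spp1* was called within WT but not within *Il9r*-/-. The call ended in 12 alternatives, among them each single AM library and 3 of the 4 single CD11c+ IM libraries left out (adjusted p up to 0.459 by edgeR).

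Transcription factors of macrophages moved both ways, 23 of 47 higher and 12 lower, 17 and 6 of them in each genotype. *Maf*, a basic leucine zipper factor of tissue macrophages, stood at 6.06, 7.58, 11.3 and 8.74 CPM in CD11c+ IMs, against 0.221, 0.298, 0.206 and 0.203 CPM in AMs (log2 fold change 5.14, SE 0.32, adjusted p = 2.08e-05). *Hes1*, a target of Notch, stood at 10.8, 29.1, 14.3 and 24.1 CPM in CD11c+ IMs, against 0.907, 0.983, 0.925 and 0.778 CPM in AMs (log2 fold change 4.44, SE 0.36, adjusted p = 7.36e-05), and *Rbpj*, the DNA-binding partner of Notch, was higher by 2.27 ± 0.12. Both were above every AM library. *Runx3* (4.72), *Ahr* (4.07), the aryl hydrocarbon receptor, *Irf5* (1.69), *Irf8* (0.87), *Id2* (1.29) and *Hif1a* (0.83), the oxygen-regulated factor, were higher in both genotypes. *Zbtb46* (4.14), a factor of dendritic cells, was higher as well, as were the dendritic cell sums given above, and their part in this difference was not tested. Lower factors included *Pparg*, which specifies AMs and drives lipid genes, at 160.4, 108, 101 and 107 CPM in CD11c+ IMs, against 439.9, 374, 306 and 387 CPM in AMs (log2 fold change -1.67, SE 0.15, adjusted p = 9.94e-05). Its partner *Rxra* (-1.64) was lower too. The early growth response factors went apart, with *Egr1* higher by 1.13 ± 0.10 and *Egr2* lower (log2 fold change -1.37) in both genotypes.

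Genes of lipid uptake, storage and oxidation were lower in CD11c+ IMs, 29 of 42, with 22 lower in each genotype and a median log2 fold change of -0.80. *Cidec*, which enlarges lipid droplets, stood at 129, 41.1, 33.5 and 28.3 CPM in CD11c+ IMs, against 656, 672, 588 and 716 CPM in AMs (log2 fold change -3.68, SE 0.43, adjusted p = 0.000333). *Lpl*, the lipase that frees fatty acids, stood at 616 to 1397 CPM in CD11c+ IMs and 2823 to 3474 CPM in AMs. The oxidation of fatty acids was covered from entry to the last steps. *Cpt1a*, the carnitine transferase of entry, stood at 234, 174, 176 and 177 CPM in CD11c+ IMs, against 422, 478, 496 and 532 CPM in AMs (log2 fold change -1.34, SE 0.13, adjusted p = 0.00017). *Cpt2* (-1.47), *Hadha* (-1.03) and *Hadhb* (-1.17) of the mitochondrial path and *Acaa1b* (-3.89) of the peroxisomal path were lower in both genotypes. For these genes too, CD11c+ IM 1 labelled *Il9r*-/- stood closest to AMs, as the highest of the 4 CD11c+ IM libraries for 26 of 42 genes. *Abcg1*, which exports cholesterol to HDL and limits foam cell formation in AMs, stood at 332, 118, 212 and 170.2 CPM in CD11c+ IMs, against 921, 919.7, 916 and 999 CPM in AMs (log2 fold change -2.18, SE 0.29, adjusted p = 0.00059). *Apoe* went the other way, as given above. Genes of cholesterol synthesis and efflux as a list were near the background, with 3 of 28 higher and 5 lower. The lower count was 8 without *Il9r*-/- CD11c+ IM 1, 3 without WT CD11c+ IM 1 or any 1 of the AM libraries, and between 2 and 11 over all alternatives.

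**Figure D4:**
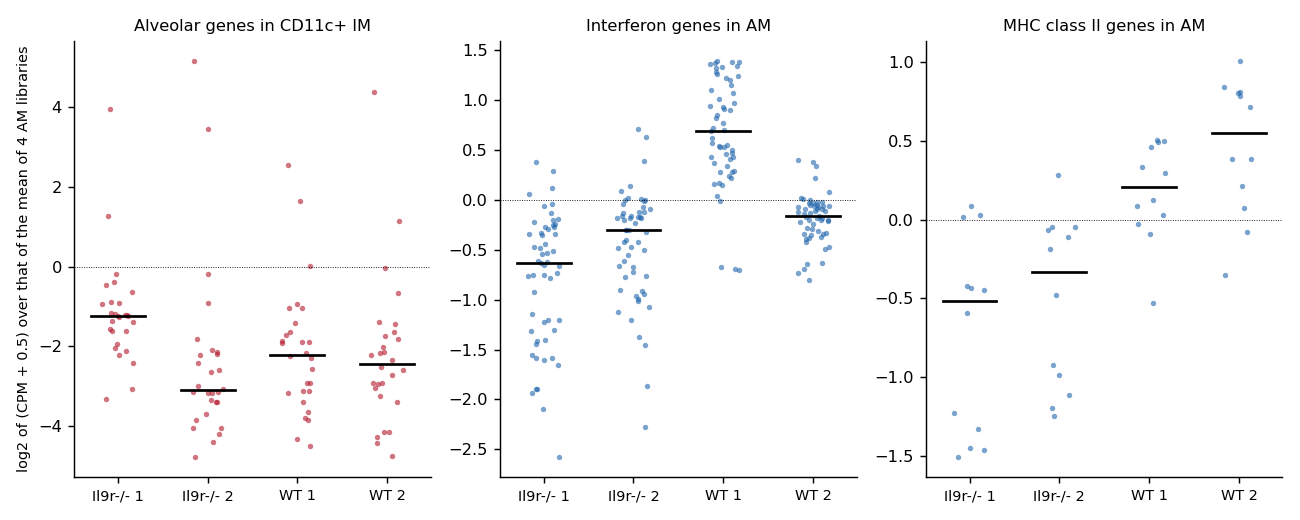
Log2 ratio of CPM + 0.5 to the mean of the 4 AM libraries, 1 point a gene and lines at the medians, for alveolar genes in the CD11c+ IM libraries (left) and for interferon and MHC class II genes in the AM libraries (middle and right). The medians are -1.23 in CD11c+ IM 1 labelled *Il9r*-/- on the left and 0.69 in WT AM 1 in the middle.

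Of 12 genes of MHC class II presentation 10 were higher, all 10 within *Il9r*-/- and 7 within WT, with a median log2 fold change of 2.84. *Cd74*, the invariant chain, stood at 13991 and 19651 CPM in CD11c+ IMs labelled *Il9r*-/-, against 942 and 961 CPM in AMs with that label. In WT, *Cd74* stood at 13341 and 17079 CPM in CD11c+ IMs, against 3113 and 3809 CPM in AMs (log2 fold change 3.14, SE 0.42, adjusted p = 0.000674). *H2-Eb1*, a class II beta chain, stood at 2574 and 3945 CPM in CD11c+ IMs labelled *Il9r*-/-, against 65.5 and 98.4 CPM in AMs with that label. In WT, *H2-Eb1* stood at 2873 and 3430.0 CPM in CD11c+ IMs, against 258 and 327 CPM in AMs (log2 fold change 4.37, SE 0.44, adjusted p = 0.000164). *Ciita*, the master regulator of the class, stood at 45.5 and 119 CPM in CD11c+ IMs labelled *Il9r*-/-, against 7.16 and 9.23 CPM in AMs with that label. In WT, *Ciita* stood at 61.002 and 110.0 CPM in CD11c+ IMs, against 20.5 and 38.3 CPM in AMs (log2 fold change 2.42, SE 0.49, adjusted p = 0.00512). No AM library reached a CD11c+ IM library for these 3 genes, and the level within AMs was higher in WT than in the libraries labelled *Il9r*-/-. The list's difference between populations was larger within *Il9r*-/- (median 3.73) than within WT (median 2.17). For *Cd74* the difference of the differences was 2.01 ± 0.34 log2 units (adjusted p = 0.959 by edgeR) and for *H2-Aa* 2.16 ± 0.35 (adjusted p = 0.959). It was positive for 11 of 12 members, 6 of them at an unadjusted p under 0.05 and none after adjustment over all genes. Over the 14 dendritic cell genes the difference of the differences had a median of 1.305 log2 units, was positive for 13 and had an unadjusted p under 0.05 for 3, beside a median of 0.848 for the class II list. Other lists shifted as well, with a median of 1.104 for endothelium (14 of 16 positive) and 0.405 for the interferon list (47 of 55 positive). The melanocyte list went the other way, at -1.132 (1 of 12 positive), and the median over all genes tested was 0.044. Within AMs, WT 2 was the highest library for 10 of the 12 genes. Class II genes are also expressed by dendritic cells and B cells, whose sums were higher in CD11c+ IMs as given above, and their part in this result was not tested. Within each genotype the CD11c+ IM library numbered 2 was above that numbered 1 for *Cd74*, as for the dendritic cell, neutrophil and B cell sums. With 2 libraries of each label, this order cannot tell these cell types apart.

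Costimulatory molecules were mostly higher, 12 of 20 genes of the checkpoint and costimulation list, with 4 (20%) lower, beside 16.2% of all genes tested. *Cd86*, a ligand of CD28, stood at 167, 152, 129.9 and 148 CPM in CD11c+ IMs, against 13.1, 16.03, 22.4 and 26.9 CPM in AMs (log2 fold change 2.97, SE 0.21, adjusted p = 3.86e-05). *Cd40*, through which T cells license antigen-presenting cells, stood at 61.5, 121, 62.04 and 75.7 CPM in CD11c+ IMs, against 0.613, 2.14, 4.34 and 3.89 CPM in AMs (log2 fold change 5.003, SE 0.55, adjusted p = 0.000247). *Cd83* (2.81), *Tnfsf9* (4-1BB ligand, 6.13) and *Lgals9* (galectin 9, 0.75) were higher in both genotypes without overlap. The lower members were *Cd47* (-0.87), the signal against engulfment, *Sirpa* (-1.002), its receptor, *Siglec1* (-2.02) and *Cd274* (PD-L1). *Cd274* stood at 161 to 179 CPM in CD11c+ IMs and 175 to 249 CPM in AMs and was called within WT alone. Its call at a log2 fold change of -0.32 ended in 12 alternatives, among them the replicate block (adjusted p = 0.0597) and the omission of either WT CD11c+ IM library, either WT AM library or *Il9r*-/- AM 2 (adjusted p of 0.0897 to 0.123 by edgeR).

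Genes of the interferon response were higher as a group, 48 of 55, with a median log2 fold change of 2.16, 39 within *Il9r*-/- and 24 within WT, and 23 in both. Of the 55, 28 were free of overlap between the populations, and 1 AM library stood apart. *Ifit3*, an antiviral effector, stood at 21.5 and 35.5 CPM in CD11c+ IMs labelled *Il9r*-/-, against 5.297 and 5.75 CPM in AMs with that label. In WT, *Ifit3* stood at 97.9 and 64.03 CPM in CD11c+ IMs, against 41.1 and 14.2 CPM in AMs (log2 fold change 1.95, SE 0.36, adjusted p = 0.0034). *Isg15*, a ubiquitin-like modifier, stood at 10.6 and 32.4 CPM in CD11c+ IMs labelled *Il9r*-/-, against 2.403 and 5.24 CPM in AMs with that label. In WT, *Isg15* stood at 41.3 and 34.8 CPM in CD11c+ IMs, against 14.6 and 6.599 CPM in AMs (log2 fold change 2.16, SE 0.43, adjusted p = 0.00486). In WT AM 1 both genes were well above the other 3 AM libraries, and for 47 of the 55 genes that library was the highest of the 4, with a median ratio to the AM mean of 0.69 log2 units, against -0.63, -0.30 and -0.16 in the others. The leading library was counted over the list within AMs only. Among the genes given by library here, the highest CD11c+ IM library was WT 1 for *Ifit3*, *Isg15* and *Irf7* and *Il9r*-/- 2 for *Ifitm3*. *Ifitm3*, an inhibitor of viral entry, stood at 169.9, 646, 369 and 565 CPM in CD11c+ IMs, against 12.4, 28.1, 23.7 and 21.4 CPM in AMs (log2 fold change 4.35, SE 0.46, adjusted p = 0.000205). The count of members called was 38 to 51 over the alternatives, with the lowest without *Il9r*-/- AM 1 and a count of 47 without WT AM 1. Genes without overlap and called in both genotypes included *Ifi205* (4.53), *Mx1* (3.54), *Usp18* (3.36), *Oasl1* (3.44), *Gbp3* (2.36) and *Irf1* (2.18). *Cxcl10*, a chemokine induced by interferon, was higher by 2.94 ± 0.50 in both genotypes. *Irf7*, the factor that amplifies the type I response, was called within *Il9r*-/- and not within WT, and stood at 65.7, 188, 199 and 160.3 CPM in CD11c+ IMs, against 9.099, 16.4, 89.03 and 26.1 CPM in AMs (log2 fold change 2.47, SE 0.55, adjusted p = 0.00861).

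The promoters of *Ifit3* and *Isg15* are shown because both genes belong to the interferon group and hold repeats of its known element. The sequences are again RefSeq's for GRCm38.p6, *Ifit3* at chr19:34583279-34583578 on the plus strand and *Isg15* at chr4:156200769-156201068 on the minus strand. Capitals mark GAAANNGAA, the core of the element bound by IRF and STAT complexes, on either strand. Matches began at -155, -121 and -102 in *Ifit3*, all on the opposite strand, and at -78, -72 and -66 in *Isg15*, where they overlap and form 1 run of capitals on the strand shown.
Ifit3: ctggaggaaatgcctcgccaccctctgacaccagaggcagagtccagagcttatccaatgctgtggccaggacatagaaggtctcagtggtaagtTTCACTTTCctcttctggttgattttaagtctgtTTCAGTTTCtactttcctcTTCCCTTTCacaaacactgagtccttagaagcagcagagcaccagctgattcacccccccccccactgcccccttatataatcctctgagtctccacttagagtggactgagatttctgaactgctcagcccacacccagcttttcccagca
Isg15: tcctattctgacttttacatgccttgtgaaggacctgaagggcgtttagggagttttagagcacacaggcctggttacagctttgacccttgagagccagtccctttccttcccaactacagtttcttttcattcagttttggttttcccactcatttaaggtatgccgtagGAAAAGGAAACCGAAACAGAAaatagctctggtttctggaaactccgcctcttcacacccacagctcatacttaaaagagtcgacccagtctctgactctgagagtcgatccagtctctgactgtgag
Of all 10641 promoters of this length, 7.57% held GAAANNGAA on either strand. A promoter was found for under 80% of the interferon list, so no share over the list is given.

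Chemokine ligands were higher in CD11c+ IMs for 19 of 26 genes and lower for 2, with a median log2 fold change of 3.01 and 17 higher in each genotype. *Ccl12*, a ligand of CCR2 that draws monocytes, stood at 30.04, 31.4, 49.6 and 46.2 CPM in CD11c+ IMs, against 0.564, 0.357, 0.617 and 0.338 CPM in AMs (log2 fold change 6.32, SE 0.25, adjusted p = 5.56e-06). *Cxcl16*, the ligand of CXCR6 on effector T cells, stood at 487, 467, 486 and 410.2 CPM in CD11c+ IMs, against 13.98, 16.8, 52.7 and 27.4 CPM in AMs (log2 fold change 4.21, SE 0.36, adjusted p = 8.35e-05). *Ccl24*, an eotaxin, stood at 19.6, 27.7, 256 and 84.1 CPM in CD11c+ IMs, against 0.221, 0.328, 3.37 and 2.71 CPM in AMs (log2 fold change 6.01, SE 0.42, adjusted p = 3.42e-05). *Ccl24* was higher in WT than in the libraries labelled *Il9r*-/- in both populations. *Ccl17* and *Ccl22*, ligands of CCR4 on regulatory and Th2 cells, are also products of dendritic cells and were counted among their markers. *Ccl17* stood at 113, 148, 91.5 and 109.6 CPM in CD11c+ IMs, against 2.502, 2.26, 6.94 and 5.11 CPM in AMs (log2 fold change 4.88, SE 0.37, adjusted p = 5.40e-05). *Ccl22* stood at 146 to 671 CPM in CD11c+ IMs and 8.66 to 14.9 CPM in AMs. *Ccl9* was higher by 2.81 ± 0.24 in both genotypes. Of the 2 ligands on the side of AMs, *Cx3cl1*, fractalkine, stood at 36.3, 44.4, 14.6 and 25.2 CPM in CD11c+ IMs, against 102, 104, 93.7 and 98.9 CPM in AMs (log2 fold change -1.81, SE 0.24, adjusted p = 0.000575). The other was *Ccl3* (-0.74), which was called within *Il9r*-/- and overlapped between the populations.

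Receptors for chemokines and other attractants followed, with 17 of 29 higher and 8 lower, 12 and 5 in each genotype. *C3ar1*, the receptor of the complement fragment C3a, was higher by 6.43 ± 0.32 log2 units, at 188 to 447 CPM in CD11c+ IMs and 1.97 to 5.94 CPM in AMs. *Ccr7*, which guides antigen-presenting cells to lymph nodes, stood at 616, 1354, 328 and 887 CPM in CD11c+ IMs, against 9.47, 21.5, 14.004 and 30.3 CPM in AMs (log2 fold change 5.39, SE 0.56, adjusted p = 0.000205). It was highest in the CD11c+ IM libraries numbered 2 of both genotypes. *Ccr7* is itself a member of the dendritic cell sum, so the same order in that sum is no separate observation. *Ccrl2* was higher by 1.24 ± 0.10. On the side of AMs, *Fpr1* (log2 fold change -2.52), a receptor of bacterial formyl peptides, *Ffar4* (-2.23), a receptor of long-chain fatty acids, and *C5ar1* (-0.59), the receptor of C5a, were lower, the last with overlap. Of 23 complement genes, the C1q chains and *C3ar1* included, 14 were higher and 3 lower. The lower ones include the sorting gene *Itgax*, which is no finding. *C1ra*, the protease that C1q activates, was lower (log2 fold change -1.36) at 12.4 to 24.8 CPM in CD11c+ IMs and 40.3 to 55.96 CPM in AMs, the direction opposite to that of C1q.

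Cytokine genes were higher for 17 of 35 (48.6%) and lower for 7 (20%), beside 20% and 16.2% of all genes tested. In each genotype 11 were higher and 2 lower, beside 8.83% and 5.62% of all genes tested. The lower direction was thus near the background. *Il10*, which dampens inflammation, was low but separate at 5.75, 7.61, 14.4 and 9.14 CPM in CD11c+ IMs, against 0.294, 0.298, 0.745 and 0.271 CPM in AMs (log2 fold change 4.49, SE 0.37, adjusted p = 7.31e-05). *Il6* stood at 30.9, 33.2, 27.9 and 30.6 CPM in CD11c+ IMs, against 6.13, 6.85, 2.47 and 3.08 CPM in AMs (log2 fold change 2.84, SE 0.24, adjusted p = 8.35e-05). *Il1b* stood at 980.1 to 2572 CPM in CD11c+ IMs and 243 to 484 CPM in AMs (2.34). *Il12b*, the p40 chain shared by IL-12 and IL-23, stood at 237, 299.9, 29.3 and 143 CPM in CD11c+ IMs, against 0.662, 1.28, 0.308 and 2.03 CPM in AMs (log2 fold change 7.22, SE 0.79, adjusted p = 0.000255). Its lowest and highest CD11c+ IM values were in WT 1 and *Il9r*-/- 2, as for the dendritic cell sum. *Il9r*-/- 1 was above WT 2 for *Il12b* and below it for that sum, and the part of dendritic cells was not tested. *Il23a* was higher by 4.56 ± 0.73. *Retnla*, a product of alternatively activated macrophages, was higher by 6.37 ± 0.32 at 414 to 878 CPM in CD11c+ IMs and 5.44 to 9.74 CPM in AMs. *Il18* (-2.49) and *Tnf* (-0.70) were lower, *Il18* in both genotypes and *Tnf* in the joint fit only. *Csf3*, the gene of G-CSF, had 82 counts over the 4 CD11c+ IM libraries and 0 in the AM libraries, at least 27.4-fold higher against a floor of 3 counts over the AM group.

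Receptors of cytokines and their feedback were higher for 15 of 30 genes and lower for 4. *Socs3*, an inhibitor of STAT3 signals that is itself induced by them, was at 344 to 545 CPM in CD11c+ IMs and 36.03 to 57.9 CPM in AMs (3.33), and *Socs1* was higher by 2.11 ± 0.23. *Il2rg*, the common gamma chain through which IL-9 signals, was higher by 1.39 ± 0.17 in both genotypes without overlap. *Il9r* itself was not called (log2 fold change -0.61, SE 0.39, adjusted p = 0.255), with levels of 4.09, 4.01, 0.148 and 0.469 CPM in CD11c+ IMs, against 6.205, 6.34, 0.591 and 0.305 CPM in AMs. *Il7r* was higher by 4.91 ± 0.31 and *Il10ra* by 1.29 ± 0.25. *Csf2rb* (-0.79), the beta chain of the GM-CSF receptor, and the related gene *Csf2rb2* (-0.66) were lower in both genotypes. Of the lower count of 4, 2 remained without WT CD11c+ IM 2, WT AM 1 or WT AM 2.

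Growth and angiogenic factors were higher for 22 of 37 genes, 14 of them in each genotype. They were lower for 6 (16.2%, the share over all genes tested), or 3 without the WT libraries numbered 2. *Vegfa*, the main growth factor of vessels, stood at 128, 107, 203 and 139 CPM in CD11c+ IMs, against 3.68, 9.71, 8.58 and 7.68 CPM in AMs (log2 fold change 4.26, SE 0.30, adjusted p = 3.75e-05). *Thbs1*, thrombospondin 1, which inhibits vessels and activates TGF-β, stood at 374, 631, 604 and 581 CPM in CD11c+ IMs, against 9.37, 33.8, 24.3 and 41.01 CPM in AMs (log2 fold change 4.36, SE 0.42, adjusted p = 0.00014). *Csf1*, the growth factor of macrophages, stood at 45.3, 31.1, 50.7 and 36.003 CPM in CD11c+ IMs, against 1.15, 3.01, 2.57 and 1.52 CPM in AMs (log2 fold change 4.30, SE 0.34, adjusted p = 5.94e-05), and *Pdgfa* was higher by 5.71 ± 0.51. *Sema4d* was higher by 3.49 ± 0.36. These 5 genes were called in both genotypes without overlap. *Gdf3* was called in both genotypes, and its CD11c+ IM level was higher in WT (2.38, 2.14, 64.6 and 14.4 CPM in CD11c+ IMs, against 0.0736, 0.149, 0.308 and 0.169 CPM in AMs). *Angptl4*, a PPAR target that inhibits lipoprotein lipase, was lower (log2 fold change -2.52), and *Flt1*, a receptor of VEGF, was lower too (-2.05).

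Matrix genes were higher for 26 of 42 and lower for 5, or 8 without *Il9r*-/- CD11c+ IM 1. *Mmp12*, the macrophage elastase, stood at 1244, 354, 1407 and 859.9 CPM in CD11c+ IMs, against 14.8, 15.2, 60.4 and 57.1 CPM in AMs (log2 fold change 4.99, SE 0.50, adjusted p = 0.000167). CD11c+ IM 2 labelled *Il9r*-/- was the lowest of its population and still above all AM libraries. *Mmp13*, a collagenase encoded beside it on chromosome 9, stood at 27.4, 15.7, 32.8 and 37.4 CPM in CD11c+ IMs, against 0, 0.209, 0.385 and 0 CPM in AMs (log2 fold change 7.52, SE 0.69, adjusted p = 0.000111). By genotype, the log2 fold change of *Mmp12* was 5.73 within *Il9r*-/- and 4.27 within WT. *Adam8* (5.67), a surface metalloprotease, and *Timp2* (1.67), an inhibitor of metalloproteases, were higher in both genotypes, while *Adamts2* (-2.75), which trims procollagen, *Tgm2* (-0.73) and *Cd44* (-0.98), the hyaluronan receptor, were lower. Integrins and adhesion molecules were higher for 21 of 38 and lower for 8, the sorting gene *Itgax* among the lower ones. *Vcam1* was higher by 5.94 ± 0.47 at 44.8 to 96.5 CPM in CD11c+ IMs and 0.54 to 2.57 CPM in AMs, and *Itgam* (CD11b) by 4.63 ± 0.41. *Itgb8*, an integrin subunit that activates TGF-β, had 277 counts in CD11c+ IMs and 0 in AMs, at least 92.4-fold higher against the same floor.

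Arginine and polyamine genes were higher for 10 of 20. *Arg1*, which turns arginine into ornithine and is linked to the suppression of T cells by TAMs, stood at 254 and 179.8 CPM in CD11c+ IMs labelled *Il9r*-/-, against 1.25 and 1.698 CPM in AMs with that label. In WT, *Arg1* stood at 783 and 466 CPM in CD11c+ IMs, against 10.9 and 9.44 CPM in AMs (log2 fold change 6.51, SE 0.35, adjusted p = 1.09e-05). The populations did not overlap, and in both populations the WT libraries were above those labelled *Il9r*-/-. The log2 fold change was 7.20 within *Il9r*-/- and 5.94 within WT. *Nos2*, which uses the same substrate for nitric oxide, had 992 counts in CD11c+ IMs and 1 in AMs, a ratio of 993 with a 95% exact interval of 178 to 39200 that covers counting error only. *Gatm* (3.66), *Smox* (1.46) and *Odc1* (0.79), enzymes of creatine and polyamine metabolism, were higher in both genotypes. Glycolysis and hypoxia genes were higher for 25 of 36, with a median log2 fold change of 0.92. *Slc2a1*, the glucose transporter GLUT1, was higher by 1.61 ± 0.13, *Eno3* by 4.02 ± 0.50 and *Gpi1* by 0.69 ± 0.10, and *Pfkfb4* was lower (log2 fold change -1.32). Of 53 genes of oxidative phosphorylation, 0 were higher and 6 (11.3%) lower, beside 20% and 16.2% of all genes tested, with a median of -0.09. The median was -0.21 within *Il9r*-/- and 0.04 within WT. The difference of the differences was positive for 2 of the 53, beside 7237 of all 13297 genes tested. The lower count was 3 without WT CD11c+ IM 2 or either AM library labelled *Il9r*-/-, and between 2 and 12 over the alternatives.

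Iron genes were higher for 13 of 22 and lower for 4, or 2 without the WT libraries numbered 2. *Slc11a1* (NRAMP1), which withholds iron from microbes in the phagosome, stood at 394, 514, 534 and 506 CPM in CD11c+ IMs, against 14.1, 21.4, 32.5 and 30.1 CPM in AMs (log2 fold change 4.36, SE 0.21, adjusted p = 6.71e-06). *Slc40a1*, ferroportin, the exporter of iron, was higher by 2.52 ± 0.12. Hp, haptoglobin, was higher by 3.11 ± 0.49 and is also a neutrophil product. *Ncoa4*, which delivers ferritin for breakdown, was lower (log2 fold change -1.62), and so was, outside this list, *Trf*, transferrin (-1.39). All 5 genes were called in both genotypes. Of 59 cathepsin and lysosomal genes, 13 were higher and 14 lower, or 22% and 23.7%. As a list they were near the background in the higher direction, and 16.2% of all genes tested were lower. The lower count was 9 without *Il9r*-/- AM 2 or either WT AM library and 4 without the WT libraries numbered 2. *Ctsb*, cathepsin B, was at 5511 to 11328 CPM in CD11c+ IMs and 2898 to 3502 CPM in AMs (1.39), *Lgmn*, legumain, was higher by 1.89 ± 0.23 and *Cst3*, cystatin C, by 2.11 ± 0.23.

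Receptors of engulfment divided between the populations, with 13 of 31 higher and 11 lower, or 7 without the WT libraries numbered 2 and 6 in the fit of all 12 libraries. Members of 1 receptor family and its ligands differed in direction. *Axl*, a receptor for apoptotic cells, was lower (log2 fold change -1.50) at 523 to 1123 CPM in CD11c+ IMs and 1913 to 2325 CPM in AMs, and *Pros1*, a ligand of this receptor family, was lower too (-1.72). *Gas6*, the ligand of AXL, stood at 48.9, 72.2, 72.8 and 82.3 CPM in CD11c+ IMs, against 1.18, 0.834, 2.34 and 3.15 CPM in AMs (log2 fold change 5.32, SE 0.29, adjusted p = 1.10e-05). *Timd4*, which binds phosphatidylserine, stood at 22.3, 41.3, 25.8 and 26.9 CPM in CD11c+ IMs, against 0.0491, 0.447, 0.925 and 0.474 CPM in AMs (log2 fold change 5.999, SE 0.58, adjusted p = 0.000141). *Mfge8*, a bridge to phosphatidylserine, stood at 102 to 208 CPM in CD11c+ IMs and 17.9 to 74.1 CPM in AMs (2.27). Both were above AMs in every library. *Msr1* (2.61), the class A scavenger receptor, and *Trem2* (1.90), a lipid sensor of TAMs, were higher in both genotypes. *Marco*, the scavenger receptor of AMs for particles, was lower (log2 fold change -1.81), a call that ended in the fit of all 12 libraries (adjusted p = 0.0685 by edgeR).

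Pattern and antibody receptors differed by member. Among 27 C-type lectins, 12 were higher and 6 (22.2%) lower, beside 16.2% of all genes tested. The lower count was 3 in the fit of all 12 libraries. *Mgl2* (CD301b) was higher by 6.53 ± 0.35 at 231 to 375 CPM in CD11c+ IMs and 2.26 to 5.24 CPM in AMs, *Clec12a* by 1.37 ± 0.13, and the members of the Cd209 cluster *Cd209f* (5.54) and *Cd209g* (5.33) were higher too, while *Cd302* (-1.50) was lower. Cd209 genes resemble each other closely, so reads may be split among them. Of the 26 Toll-like receptor and adaptor genes 12 were higher, such as *Tlr1* (5.49), *Tlr13* (1.38), *Ly86* (2.76) and *Cd14* (0.94), and 7 lower, such as *Tlr2* (-1.22) and *Tlr4* (-1.02). The partners of the TLR1 and TLR2 heterodimer therefore differed in opposite directions, in both genotypes. Among 11 Fc receptors, *Fcgr2b*, the inhibitory receptor for IgG, was higher by 1.16 ± 0.17 and *Fcrls*, a mouse macrophage gene, by 6.51 ± 0.40, while *Fcgrt*, the receptor that recycles IgG, was lower (log2 fold change -1.33).

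Cell cycle genes were lower for 12 of 42 and higher for 2. *Ccnd1*, cyclin D1, was higher by 3.47 ± 0.29 and *Ccnd2*, cyclin D2, lower (log2 fold change -1.14) in both genotypes without overlap, and *Pcna* (-0.45) and *Stmn1* (-0.58) were lower. Immediate early and stress genes, which dissociation of tissue can induce, were higher for 18 of 32. *Junb* stood at 2220.4 to 2853 CPM in CD11c+ IMs and 1364 to 1506 CPM in AMs (0.81) and *Dusp1* at 2366 to 3531 CPM in CD11c+ IMs and 1671 to 2099.6 CPM in AMs (0.72). Antioxidant and NADPH oxidase genes were called for 9 higher and 11 lower of 41, or 22% and 26.8%. This list too was near the background in the higher direction, beside 16.2% lower over all genes tested. The lower count was 6 without the WT libraries numbered 2 and 7 in the fit of all 12 libraries. *Ncf4* (1.15) and *Prdx6* (0.95) were higher in both genotypes.

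Markers of other cells were followed in every library. Among 14 genes of dendritic cells, CD11c+ IMs had 13 higher and 1, *Ly75* (DEC-205, -1.95), lower. *Flt3*, the receptor that defines dendritic cells, stood at 40.5, 109.8, 16.8 and 62.7 CPM in CD11c+ IMs, against 0.27, 0.566, 0.411 and 1.62 CPM in AMs (log2 fold change 6.33, SE 0.78, adjusted p = 0.000424), and *Cd209a* was higher by 4.90 ± 0.77. The neutrophil genes were higher for 7 of 10. *S100a8* stood at 121, 501, 51.3 and 284 CPM in CD11c+ IMs, against 30.1, 45.3, 17.5 and 30.7 CPM in AMs (log2 fold change 2.92, SE 0.60, adjusted p = 0.00566). *S100a9* stood at 57.97 to 657 CPM in CD11c+ IMs and 9.79 to 59.4 CPM in AMs and overlapped between the populations. The T cell gene *Cd3e* stood at 13.6, 28.04, 15.3 and 30.4 CPM in CD11c+ IMs, against 1.104, 3.46, 2.88 and 3.72 CPM in AMs (log2 fold change 2.99, SE 0.42, adjusted p = 0.000862). For *Flt3*, *S100a8*, *S100a9* and *Cd3e* the CD11c+ IM library numbered 2 was above that numbered 1 in both genotypes. Of 14 T and NK cell genes 13 were higher, yet their sum was 318 to 555 CPM in CD11c+ IMs and 482 to 588 CPM in AMs, because *Cd2*, which was lower (log2 fold change -1.95), made up most of the sum in AMs.

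Structural and tumor cells were less clear. Endothelial genes were higher for 10 of 16. The count was 4 without either pair of libraries labelled *Il9r*-/-, 5 without *Il9r*-/- AM 1 or WT AM 1, and 6 without *Il9r*-/- CD11c+ IM 1 or *Il9r*-/- AM 2. Their sum was 103 to 255 CPM in CD11c+ IMs and 49.7 to 84.5 CPM in AMs. Epithelial genes were higher for 5 of 18, with sums of 303 to 923 CPM and 124 to 189 CPM. Fibroblast and smooth muscle genes were higher for 6 of 14, and the count was 1 without *Il9r*-/- CD11c+ IM 2, 2 without either pair of WT libraries, and 3 without *Il9r*-/- AM 2 or WT AM 2. Melanocyte genes, which would also mark B16 cells, had 1 member higher and 1 lower of 12. The pigment gene *Dct* stood at 14.3, 49.6, 247 and 112 CPM in CD11c+ IMs, against 29.5, 18.6, 104 and 37.8 CPM in AMs (log2 fold change 0.88, SE 0.49, adjusted p = 0.198). WT 1 was the highest library in both populations. *Pf4*, platelet factor 4, which tissue macrophages also express, was higher by 4.95 ± 0.23 log2 units in both genotypes.

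**Figure D5:**
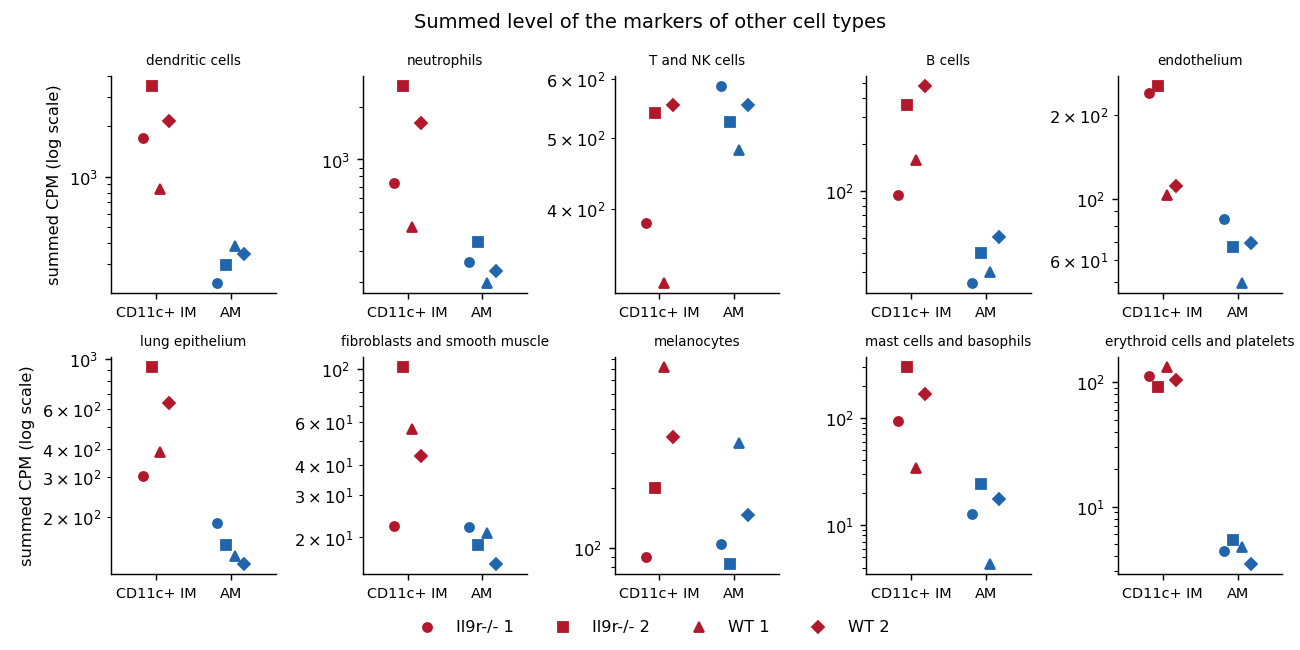
Summed CPM (log axis) of the marker genes of 10 other cell types in the 4 CD11c+ IM libraries (red, left) and the 4 AM libraries (blue, right), with symbols for the numbered libraries of each label. The dendritic cell sums are 837.5 to 3506 CPM in CD11c+ IMs and 230 to 381 CPM in AMs, and the T and NK cell sums overlap.

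The test of whether the difference between CD11c+ IMs and AMs itself differed between the genotypes called 0 of 13297 genes (0.0%) by edgeR, with 583 genes (4.38%) at an unadjusted p under 0.05 and a lowest adjusted p of 0.569, while DESeq2 called 28 and limma voom 0. The fit of 4 groups has no term for the library number, and with the replicate block it called 0 genes, with 677 at an unadjusted p under 0.05. With edgeR, 8 genes were called without *Il9r*-/- CD11c+ IM 2. The lowest p belonged to *Zmynd15*, a zinc finger gene, at 72.6 and 92.96 CPM in CD11c+ IMs labelled *Il9r*-/-, against 0.221 and 0.417 CPM in AMs with that label. In WT, *Zmynd15* stood at 55.8 and 48.7 CPM in CD11c+ IMs, against 1.41 and 1.52 CPM in AMs. Its difference was 8.03 within *Il9r*-/- and 5.15 within WT, and the difference of these was 2.88 ± 0.38 log2 units (adjusted p = 0.569 by edgeR). *Vdac1*, a channel of the outer mitochondrial membrane, went the other way, at 36.01 and 42.1 CPM in CD11c+ IMs labelled *Il9r*-/-, against 128 and 120.5 CPM in AMs with that label. In WT, *Vdac1* stood at 67.2 and 77.1 CPM in CD11c+ IMs, against 116 and 129 CPM in AMs, with an interaction of -0.91 ± 0.20 log2 units (adjusted p = 1 by edgeR). For *Zmynd15* the genotypes stood further apart within AMs than within CD11c+ IMs, and for *Vdac1* they stood apart within CD11c+ IMs alone. *Il6*, *Lpar6* and *Emp1* had negative interactions of -1.10 ± 0.27, -1.47 ± 0.35 and -0.78 ± 0.19 log2 units, and *Ccl17* a positive one of 1.72 ± 0.30, none of them past an adjusted p of 0.05 by edgeR. A p that misses the threshold does not show that the genotypes were alike, and the labels of the genotype are those that the counts of *Il9r* went against.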

How the data were processed

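Macrophages sorted from perfused lungs of mice that had received B16 cells intravenously were profiled by RNA-seq. Per the study's methods, libraries were made from 1 ng of RNA with SMART-Seq v4 and Nextera XT, reads were mapped with STAR to mm10 and counted per refGene gene with featureCounts, and genes of low CPM were removed. The table the authors deposited holds raw counts per gene, which were used here, for 14648 genes. Its log2 FPKM, its score columns and the authors' own comparisons (fold changes and p-values) were not used. The headings of those comparisons name CD11c+ and CD11c- IMs the other way round from the count columns, and the libraries were assigned by the sample titles. The kit does not mark strand, so reads of overlapping or antisense genes cannot be told apart. The study's methods give a reverse-stranded setting for featureCounts, which counts reads of a single orientation. Its effect on the counts was not tested.

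A gene was kept where 2 or more of the 8 libraries reached 0.5 CPM (13297 genes). Counts were tested with edgeR 4.0.16 (TMM, robust quasi-likelihood F-test, Benjamini-Hochberg over all genes tested, threshold 0.05) with population and genotype as terms. A second fit of 4 groups gave the difference within each genotype and the interaction. Samples were grouped by their labels. Libraries of the same number deviated together from their group means (r = 0.26 within *Il9r*-/- and 0.36 within WT, over 9722 genes), and a fit with the number as replicate block was an alternative, as were RLE normalization, other filters, limma 3.58.1 voom, DESeq2 1.42.0, all 12 libraries, single genotypes and the omission of libraries. Library totals of 26988617 to 42020021 counts set the precision of low genes, and intervals cover counting error only. The fit was tested on simulated data.

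The members and gene lists were chosen with earlier results of these data known. Named genes were those with the largest change in both genotypes at a mean of at least 20 CPM, the most abundant called genes overall and of each list, those with the lowest interaction p, and the sorting and sex-linked genes (245 genes), with 79 added after their values were seen, and the results for a few genes are not reported here. Genes named for the largest change had to be called within each genotype and free of overlap between the populations. Promoter sequences were RefSeq's for GRCm38.p6. R 4.3.3, Python 3.11.15, pandas 2.3.3, scipy 1.17.1 and matplotlib 3.10.9 were used.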

Additional observations from a re-analysis of the deposited data

Results flagged for a closer look

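Within the 4 libraries of a population, 7 values of the genes given by library lay apart from the other 3 libraries by more than Dixon's 95% critical value. There were 130 such groups of 4, and chance flags about 1 in 20 of them. CD11c+ IM 1 labelled *Il9r*-/- was high for 5 genes, all of them on the side of AMs in the comparison. *Car4* stood at 721.5 CPM there and at 129 to 150 CPM in the other CD11c+ IM libraries, *Cidec* at 129.0 CPM and 28.3 to 41.1 CPM, and *Ear1* at 53.83 CPM and 16.1 to 22.1 CPM. *Pparg* stood at 160.4 CPM in that library and at 102 to 108 CPM in the others, and *Cpt1a* at 234.2 CPM and 174 to 177 CPM. In AMs, *Abcg1* was high in WT AM 2, at 999.1 CPM against 916 to 921 CPM, and *Il10* in WT AM 1, at 0.7451 CPM against 0.271 to 0.298 CPM.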

How the results depend on the processing

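The counts of genes higher (1790 to 2824) and lower (1135 to 2289) over the omissions of libraries had their lowest lower count without both populations of WT replicate 2. Requiring a change above 1 log2 unit left 780 lower genes beside 2008 higher. With the replicate block, which the shared deviation of equal numbers called for, the paired fit called 2633 higher and 2160 lower genes, 4491 of them shared with the 4808 of the unpaired fit and none with another sign. The block added to the fit of 4 groups, after seeing the data, called 2636 genes within *Il9r*-/-, 2575 within WT, 1998 in both and 0 for the interaction. The fit of 1 genotype alone called 1425 genes within *Il9r*-/- and 1205 in both. Leaving out 1 library gave 737 to 3914 genes within *Il9r*-/-, 839 to 3598 within WT, 692 to 2672 in both, and 0 to 8 for the interaction, for which DESeq2 called 28. Only the pairs numbered 2, chosen after seeing the data, gave 2684 higher and 2223 lower genes. The cause of these shifts was not tested, and a fit on fewer libraries has fewer degrees of freedom.

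Among single genes, *Cd68* and *Ptprc* changed sign, and neither was called where it did. *Cd68* was at -0.0054 log2 units with the replicate block, -0.0083 with limma voom, -0.3758 with the pairs numbered 2, and -0.1516 to 0.2244 over the omissions, and *Ptprc* at -0.0861 to 0.272 over the omissions. *Ptprc* was called with the pairs numbered 2 alone, at 0.4134 log2 units (adjusted p = 0.036 by edgeR). Each population and genotype had 2 libraries, and genes near 0.5 CPM rest on few reads.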
